A study of Mus musculus with 2 samples.

Results

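The genes described here are 10 immediate early genes, Fos, Fosb, Jun, Junb, Jund, Egr1, Atf3, Ier2, Dusp1 and Zfp36, of the 28692 genes in a single-cell expression matrix of mouse neural stem cell cultures. They were taken by symbol, with no measured value in the choice, and all 10 were found. Immediate early genes are transcribed within minutes of a stimulus, from transcription factors that are already present in the cell. Growth factor signals reach them through the MAP kinases, which activate the SRF and Elk factors on their promoters, and stress and cyclic AMP signals reach them through kinases that act on CREB, ATF and Jun proteins. Fos and Jun proteins pair to form AP-1, a factor that binds DNA as a dimer, and Egr1 is a zinc finger factor induced by the same signals. Dusp1 and Zfp36 are induced with them and end the response, since DUSP1 removes the phosphate from MAP kinases and ZFP36 (tristetraprolin) marks AU-rich mRNAs for decay. In brain cells these genes are widely read as signs of recent stimulation, and they are also known to be induced while tissue is taken apart for single-cell work.

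The cultures were postnatal neural stem cells of C57/Bl6J mice, from 1 library treated with 1 µM of the oxysterol 20HC and 1 control library, which received the vehicle DMSO. Both had been without the growth factors EGF and FGF for 3 days when they were sequenced. No label or file ties a barcode to either library, so the pooled matrix was 1 sample, the 2 treatments were not compared, and barcodes ending in 1 or 2 are called barcode set 1 and barcode set 2, with no condition. With no replicate libraries there is no test, all intervals below are 95% intervals that cover counting error only, and a value for a class of cells describes this culture.

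Each value is a sum of unique molecular identifiers (UMIs, 1 per captured mRNA molecule) over the cells of a class, given as CPM, the count scaled to a common UMI total per class. The UMIs were counted near transcript 3′ ends, so CPM carries no factor of gene length. After filtering, 13078 of 14685 barcodes were kept, 9680 of set 1 and 3398 of set 2, with 661 to 12425 UMIs per cell and a median of 2846.5. They formed 12 clusters in 10 classes, which were named from marker genes: 6938 astrocyte-like, 2320 cycling-like, 1445 progenitor-like, 716 oligodendrocyte precursor (OPC)-like, 403 neuroblast-like, 223 fibroblast-like, 164 ependymal-like and 36 microglia-like cells, 351 cells marked by the hypoxia genes Car9 and Adm, and 482 unnamed cells of low depth (median 1095.5 UMIs). Of the members, 4 (Fos, Junb, Egr1 and Atf3) were among the 2000 genes used for clustering, so differences between classes are descriptions. The 2 barcode sets shared 48 barcode sequences.

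Promoter windows were listed by RefSeq (GRCm38.p6) for 8 members, all but Egr1 and Ier2. The 250 bases upstream of the listed gene start are shown for 5 members, 1 for each role compared below. Elements of the kinds through which the signals named above can act were searched in the windows only. Capitals mark the short CRE (TGACG, bound by CREB and ATF proteins), the CRE or Jun-type site (TGACNTCA), the CArG box (bound by SRF), the EGR site (GCGNGGGCG) and the TATA box (TATAAA), searched on both strands.
Fos, chr12:85473640-85473889, plus strand, an AP-1 subunit: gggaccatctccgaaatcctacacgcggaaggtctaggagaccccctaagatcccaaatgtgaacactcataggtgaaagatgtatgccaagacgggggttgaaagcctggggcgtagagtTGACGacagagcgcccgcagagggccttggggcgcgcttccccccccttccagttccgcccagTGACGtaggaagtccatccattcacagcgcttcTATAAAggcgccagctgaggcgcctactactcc
Jun, chr4:95052223-95052472, minus strand, its partner: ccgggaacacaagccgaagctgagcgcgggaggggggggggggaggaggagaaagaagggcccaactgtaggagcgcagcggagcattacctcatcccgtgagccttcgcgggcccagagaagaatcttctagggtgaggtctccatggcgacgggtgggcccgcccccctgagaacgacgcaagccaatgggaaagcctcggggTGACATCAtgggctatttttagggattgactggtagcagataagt
Junb, chr8:84978749-84978998, minus strand, a Jun paralog: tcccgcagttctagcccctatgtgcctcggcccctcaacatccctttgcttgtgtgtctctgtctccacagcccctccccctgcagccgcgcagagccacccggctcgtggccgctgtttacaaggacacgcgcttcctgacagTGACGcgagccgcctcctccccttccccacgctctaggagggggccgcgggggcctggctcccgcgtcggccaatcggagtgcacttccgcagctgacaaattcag
Dusp1, chr17:26508473-26508722, minus strand, a MAP kinase phosphatase: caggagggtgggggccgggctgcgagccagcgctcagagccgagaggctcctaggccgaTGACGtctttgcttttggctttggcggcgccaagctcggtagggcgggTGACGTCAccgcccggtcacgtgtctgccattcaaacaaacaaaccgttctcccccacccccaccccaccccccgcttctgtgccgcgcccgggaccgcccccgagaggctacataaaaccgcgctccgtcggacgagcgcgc
Zfp36, chr7:28379229-28379478, minus strand, an mRNA decay factor: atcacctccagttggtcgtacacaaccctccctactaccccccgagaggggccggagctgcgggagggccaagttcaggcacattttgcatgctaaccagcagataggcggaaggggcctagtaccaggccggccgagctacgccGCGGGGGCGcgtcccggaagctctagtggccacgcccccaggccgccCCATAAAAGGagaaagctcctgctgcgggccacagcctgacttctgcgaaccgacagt

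The short CRE lay in 5 of the 8 windows of 300 bases, against 21.0% of the 27025 windows in the table. Fos held it at positions -129 and -66, Junb at -106, and Dusp1 at 3 places. Of those in Dusp1, 2 overlap as the full palindrome TGACGTCA at position -143, a sequence present in 1.88% of windows. The Jun-type site was found in Jun at position -45 and in Dusp1, and in 8.97% of all windows. Zfp36 held the only CArG box of the 8, at position -58, against 1.57% of windows, and an EGR site, which Fosb also held and which 5.55% of windows contain. The AP-1 site itself (TGANTCA) had no match in the 8 windows and was present in 7.93% of all. The listed Jund window (70697489 to 70697788, plus strand) lies wholly upstream of the GENCODE M21 gene start (70698949). The Jund window held no match to any motif searched. Those of Atf3, Dusp1 and Zfp36, on the minus strand, lie wholly downstream of their M21 gene starts. These windows begin at 191183583, 26508722 and 28379478, and the M21 starts are 191218039, 26562128 and 28380253. In Junb the TATA box lay at position 0, the listed gene start. Such matches are letters in a window and say nothing of binding in these cells. Sites farther upstream were not searched, so a window without a motif does not mean a gene without it.

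**Figure D1:**
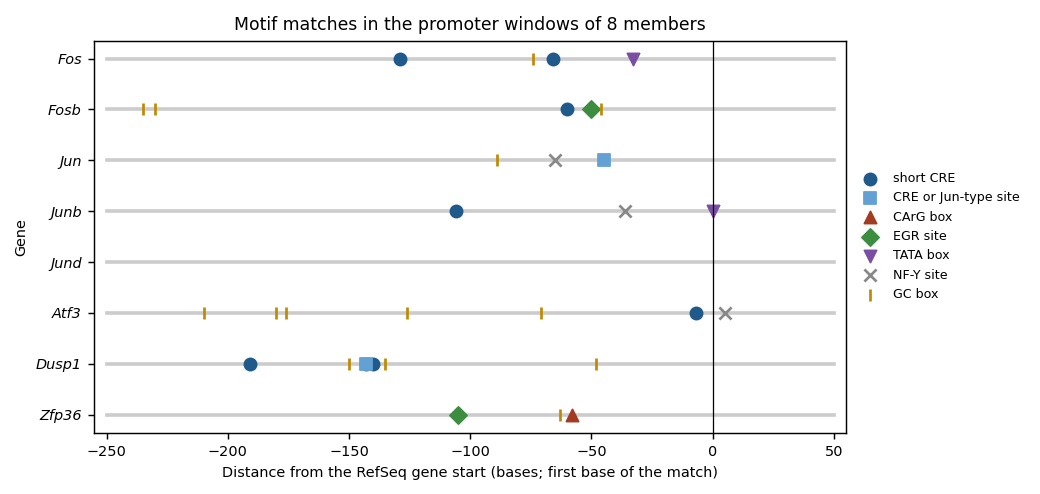
Positions of motif matches (x axis, bases from the RefSeq gene start) in the promoter windows of 8 members (rows); each symbol is the first base of 1 match on either strand. The short CRE appears in Fos, Fosb, Junb, Atf3 and Dusp1, the Jun-type site in Jun and Dusp1, and the CArG box in Zfp36.

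Immediate early mRNAs are short lived, and AU-rich sites in their 3′ untranslated regions (UTRs) take part in this. The pentamer ATTTA occurred in the 3′ UTR of 9 of the 10 members, all but Ier2, against 63.5% of 21328 genes with a GENCODE M21 3′ UTR. The longer site TTATTTATT, the form that ZFP36 is known to bind, occurred in 3 members, Fos, Dusp1 and Zfp36 itself, against 7.43% of genes. The 24 bases with most matches to ATTTA and TATTTAT, counted together, are shown for these 3, with ATTTA in capitals. These stretches need not hold the longer site.
Fos 3′ UTR: ttattgtgttttcaATTTATTTAt
Dusp1 3′ UTR: tgggagctggtccttATTTATTTA
Zfp36 3′ UTR: tttATTTAtgacgactttATTTAt

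Over all kept cells the 10 members summed to 17266 UMIs, or 448 CPM (441 to 455). Fos supplied 38.1% of these UMIs, Junb 18.3%, Egr1 17.6% and Jun 12.1%, and the other 6 the remainder. Fos stood at 171 CPM (167 to 175) and was seen in 31.3% of cells, with up to 24 UMIs in 1 cell. Fosb, Atf3 and Dusp1 were rare, at 4.28, 3.50 and 3.06 CPM, and were seen in 1.25%, 0.811% and 0.818% of cells. Counts of the rare members bear little weight outside the larger classes.

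The summed level was graded over the classes. It was 641 CPM (592 to 694) in the hypoxia-gene cluster, 618 CPM (607 to 628) in astrocyte-like cells and 605 CPM (539 to 676) in ependymal-like cells, whose intervals overlap. OPC-like cells followed at 430.1 CPM (404 to 458), an interval apart from those above and overlapped by that of microglia-like cells, then fibroblast-like cells at 361 CPM (325 to 401) and microglia-like cells at 333 CPM (256 to 426). Progenitor-like cells had 200.1 CPM (185 to 216) and the unnamed cells 189 CPM (157 to 227). The lowest levels were those of cycling-like cells, at 131 CPM (123 to 139), and neuroblast-like cells, at 97.55 CPM (78.5 to 119.8). The hypoxia-gene, astrocyte-like and ependymal-like cells thus held several times the summed level of cycling-like and neuroblast-like cells. By set, the hypoxia-gene cluster had 686 CPM in set 1 and 463 CPM in set 2 (88 UMIs). Astrocyte-like cells of set 2 had 600 CPM and ependymal-like cells 653 CPM.

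**Figure D2:**
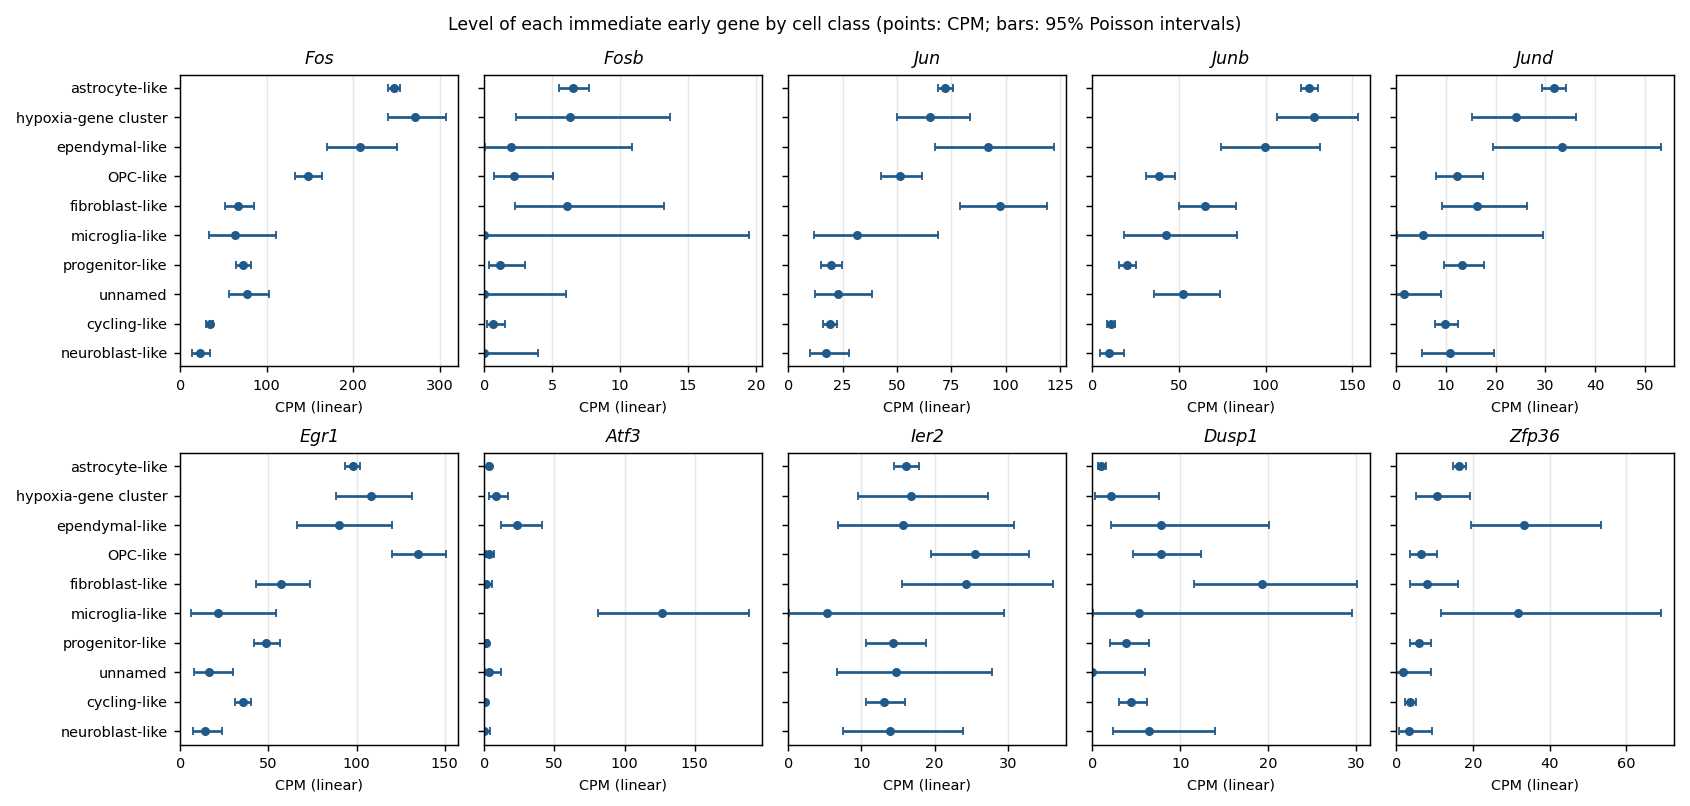
CPM of each member (x axis, linear, from 0) in the 10 cell classes (rows); points are class values and bars are 95% Poisson intervals. Fos and Junb were highest in the hypoxia-gene cluster and astrocyte-like cells, Egr1 in OPC-like cells (135 CPM), Jun and Dusp1 in fibroblast-like cells (97.4 and 19.3 CPM) and Atf3 in microglia-like cells (127 CPM).

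Fos, the subunit whose induction is the usual readout of stimulation, varied widely between classes. It stood at 272 CPM in the hypoxia-gene cluster (240 to 307), 247 CPM in astrocyte-like cells (241 to 254) and 208 CPM in ependymal-like cells (170 to 251), whose intervals overlap from neighbour to neighbour. The hypoxia-gene cluster had 295 CPM in set 1 and 179 CPM in set 2 (34 UMIs), where astrocyte-like cells had 266 CPM and ependymal-like cells 247 CPM. OPC-like cells had 148 CPM (132 to 164). The unnamed, progenitor-like, fibroblast-like and microglia-like cells lay together between 63.5 and 76.8 CPM. Cycling-like cells had 33.8 CPM (29.8 to 38.2) and neuroblast-like cells 22.5 CPM (13.9 to 34.4). Astrocyte-like cells thus had 3.18 times the Fos level of all other cells (77.8 CPM), while the level in cycling-like cells was 6.03-fold lower than in all others (204 CPM). At least 1 Fos UMI was seen in 45.8% of astrocyte-like cells (44.7 to 47.0%; median 2980.5 UMIs) and 4.22% of neuroblast-like cells (2.48 to 6.67%; median 2215 UMIs). Neuroblast-like cells had the lowest Fos share of the 10 classes, and a share at or below it cannot be told from free RNA. Thinned to 1500 UMIs per cell, the shares were 28.9% in astrocyte-like cells, 18.3% in OPC-like cells, 4.17% in cycling-like cells and 3.46% in neuroblast-like cells.

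Fosb, a paralog of Fos induced by the same stimuli, had 138 of its 165 UMIs in astrocyte-like cells, at 6.53 CPM (5.48 to 7.71) against 1.55 CPM in all other cells. The hypoxia-gene cluster (6.30 CPM, 2.31 to 13.7) and fibroblast-like cells (6.09 CPM, 2.23 to 13.3) were level with them, from 6 UMIs each. It had 0 UMIs in neuroblast-like, microglia-like and unnamed cells. In neuroblast-like cells a count of 0 allows up to 0.744% of cells with a UMI, which is no limit on cells that express the gene.

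Of the Jun family, Jun and Junb followed different orders. Jun, the founding partner of Fos, was at 97.4 CPM in fibroblast-like cells (78.9 to 119.0), 92.0 CPM in ependymal-like cells (67.6 to 122.4) and 72.3 CPM in astrocyte-like cells (68.7 to 76.0). It was at 51.5 CPM in OPC-like cells and between 17.2 and 19.5 CPM in neuroblast-like, cycling-like and progenitor-like cells, whose intervals overlap. In fibroblast-like cells Jun (97.4 CPM) was above Fos (67.0 CPM), whereas in astrocyte-like cells Jun (72.3 CPM) was below Fos (247 CPM). Junb, a Jun paralog that can hold back Jun's activity, was at 128 CPM in the hypoxia-gene cluster (106 to 153), 125 CPM in astrocyte-like cells (120.3 to 129.8) and 99.8 CPM in ependymal-like cells. In the hypoxia-gene cluster it was at 139 CPM in set 1 and 84.2 CPM in set 2 (16 UMIs), where astrocyte-like cells had 90.2 CPM. Astrocyte-like cells had 4.16 times the Junb level of all other cells (30.05 CPM), and the level in cycling-like cells (10.6 CPM) was 9.41-fold lower than in all others (99.4 CPM). OPC-like cells, which had 148 CPM of Fos, had 38.5 CPM of Junb (31.0 to 47.4), 2.20-fold lower than in all other cells (84.9 CPM). Against the cells that are not astrocyte-like (28.7 CPM) the direction turned, with a log2 ratio of 0.37. Jund, the paralog that many resting cells express, was at 33.3 CPM in ependymal-like and 31.7 CPM in astrocyte-like cells, and between 9.89 and 16.2 CPM in the cycling-like, neuroblast-like, OPC-like, progenitor-like and fibroblast-like classes.

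Egr1 shared its lead classes with Fos, but OPC-like cells stood higher in its order. Its level in OPC-like cells was 135 CPM (120.1 to 150.5), against 75.4 CPM in all other cells, a ratio of 1.79. The hypoxia-gene cluster had 108 CPM (88.3 to 131), which overlaps the OPC-like interval, astrocyte-like cells 97.8 CPM (93.7 to 102) and ependymal-like cells 90.0 CPM. By set, the hypoxia-gene cluster had 117 CPM in set 1 and 73.7 CPM in set 2 (14 UMIs), where astrocyte-like cells had 103 CPM. Fibroblast-like cells (56.8 CPM) and progenitor-like cells (48.7 CPM) lay in the middle. Cycling-like cells had 35.4 CPM and neuroblast-like cells 13.9 CPM (7.42 to 23.8). At least 1 Egr1 UMI was seen in 29.9% of OPC-like cells (26.6 to 33.4%), against 22.7% of astrocyte-like cells (21.7 to 23.7%), at median depths of 3051.5 and 2980.5 UMIs. The shares were 18.6% and 13.2% after thinning, and 2.23% of neuroblast-like cells had an Egr1 UMI before it. OPC-like cells thus held less Fos than astrocyte-like cells (148 against 247 CPM) and more Egr1 (135 against 97.8 CPM). Each barcode set had this direction. Egr1 was at 138 and 128 CPM in OPC-like cells of sets 1 and 2, against 95.8 and 103 CPM in astrocyte-like cells. In set 2 these Egr1 intervals overlap (103 to 157 and 95.1 to 112). Among cells under 2% mitochondrial UMIs, Egr1 was close, at 97.54 CPM in OPC-like and 91.13 CPM in astrocyte-like cells. From 2 to 4% it was 153 against 92.9 CPM, from 4 to 6% 164 against 103 CPM and from 6 to 10% 161 against 105 CPM. Fos was lower in OPC-like cells up to 6%, but higher from 6 to 10% (321 against 241 CPM). The Egr1 level of OPC-like cells stayed between 113 and 173 CPM over 16 other processing settings. Some of these redrew the class or left genes out of the CPM total. The range gives no astrocyte-like level, so it does not bear on the order of the 2 classes.

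Atf3, a stress-induced partner of the Jun proteins, had its highest level in the smallest class, although astrocyte-like cells, at 3.45 CPM, held more of its UMIs. The 36 microglia-like cells held 24 of its 135 UMIs, at 127 CPM (81.3 to 189), against 2.89 CPM in all other cells. They had 11 UMIs in set 1 (75.1 CPM) and 13 in set 2 (305 CPM), and 30.6% of them had at least 1. In the same cells Fos was at 63.5 CPM and Egr1 at 21.2 CPM, from 12 and 4 UMIs. Ependymal-like cells had 23.5 CPM of Atf3 (12.1 to 41.0), and the other 8 classes lay between 0 and 8.40 CPM. Ier2, an immediate early gene that encodes a nuclear protein, stayed in a narrower range than Fos: 9 classes lay between 13.1 and 25.6 CPM. OPC-like cells had 25.6 CPM (19.5 to 32.96), but 32.9 CPM in set 1 (52 UMIs) and 9.64 CPM in set 2 (7 UMIs), where astrocyte-like cells had 11.0 CPM. Over both sets, astrocyte-like cells had 16.1 CPM (14.4 to 17.9) and cycling-like cells 13.1 CPM (10.6 to 16.0). Every class's interval overlapped that of its neighbour in order, which does not make all classes alike. The OPC-like interval over both sets lay above those of astrocyte-like and cycling-like cells.

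The feedback genes Dusp1 and Zfp36 ran in opposite directions in astrocyte-like cells. Of Dusp1, astrocyte-like cells held 22 of 118 UMIs, at 1.04 CPM (0.652 to 1.58), 5.30-fold lower than in all other cells (5.52 CPM). It was at 19.3 CPM in fibroblast-like cells (11.6 to 30.1), 7.83 CPM in ependymal-like cells (2.13 to 20.05), 7.80 CPM in OPC-like cells (4.62 to 12.3), 4.41 CPM in cycling-like cells (3.03 to 6.19) and 6.43 CPM in neuroblast-like cells (2.36 to 14.0). In fibroblast-like cells the 2 sets differed, with 10 UMIs in set 1 (12.7 CPM) and 9 in set 2 (45.7 CPM). Zfp36 was at 33.3 CPM in ependymal-like cells (19.4 to 53.3), from 16.1 CPM in set 1 (6 UMIs) and 79.8 CPM in set 2 (11 UMIs). It was at 16.4 CPM in astrocyte-like cells (14.7 to 18.2), against 6.09 CPM in all cells outside the astrocyte-like class. It was at 6.50 CPM in OPC-like cells, 3.47 CPM in cycling-like cells and 3.22 CPM in neuroblast-like cells. Across the 12 clusters, the log2 level of each member was set beside that of the other 9 summed, as a description of clusters that share libraries and cells' depths. Pearson's r was 0.90 for Junb, 0.88 for Fos and 0.86 for Jun, between 0.66 and 0.76 for Fosb, Egr1, Zfp36 and Jund, and 0.25 for Ier2, 0.23 for Atf3 and -0.09 for Dusp1.

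The calls below follow a rule of size, not a test: a gene counts as higher or lower if its CPM is 1.5-fold or more from that of the remaining cells, both barcode sets point the same way, and the remaining cells' CPM lies outside the class's Poisson interval. In astrocyte-like cells 7 members were called higher (Fos, Fosb, Jun, Junb, Jund, Egr1 and Zfp36) and Dusp1 lower, where the same rule called 35.2% of 13041 genes higher and 18.9% lower. The members' median log2 ratio there was 0.88, against 0.15 over all genes. In cycling-like cells 8 were called lower and 0 higher, where 42.5% of genes were lower and 15% higher; the members' median was -1.10, against -0.24 over all genes. Ier2 and Dusp1 were the exceptions. The clusters led by Hist1h1b and by Cdc20, which make up the class, each had 8 lower and 0 higher too, where 38.8% and 35.4% of genes were lower and 14.1% and 11.4% higher. In neuroblast-like cells 7 were lower and 0 higher (24% and 10.7% of genes; medians -0.98 and -0.26). The calls in progenitor-like cells were likewise 8 lower and 0 higher (28.8% and 7.66% of genes). That class held 1445 cells here, and 633 to 688 in 4 other clusterings, where 1 to 3 members were lower and the neuroblast-like class held 1356 to 1524 cells instead of 403. With 15 principal components it held 1257 cells, and 1 member was lower. Egr1 in progenitor-like cells then lay above the other cells, by 0.066 to 0.49 on the log2 scale over these 5 settings. With a 5% mitochondrial limit and with 15 components the summed members also turned, to 0.018 and 0.033 (-1.22 here), and Fos to 0.31 and 0.21 (-1.26 here). Fosb and Jund turned above the other cells in 2 settings each, by up to 0.064 and 0.023. The low progenitor-like levels thus depend on where the class is drawn.

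In OPC-like cells Egr1 and Dusp1 were called higher and Junb, Jund and Zfp36 lower, where 7.04% of genes were higher and 18.6% lower; the members' median was -0.15, against -0.09 over all genes. Astrocyte-like cells make up 53.1% of the cells, so a comparison with all others leans on them. With those left out, Fos, Jun, Egr1 and Ier2 were higher and 0 members lower in OPC-like cells, where 10.9% of 11659 genes were higher and 11.9% lower, and Dusp1 was called neither. The hypoxia-gene cluster had 2 members higher, Fos and Junb, and 0 lower (5.96% and 7.48% of genes). Ependymal-like cells had 3 higher, Jun, Atf3 and Zfp36, and 0 lower (12.6% and 7.63% of genes). Fibroblast-like cells had Jun and Dusp1 higher and Fos lower (11.6% and 19.1% of genes), and microglia-like cells had Atf3 higher and Fos and Egr1 lower (5.22% and 15.3% of genes). The unnamed shallow cells had 6 lower and 0 higher (30.2% and 2.51% of genes).

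Within the astrocyte-like class the 2 clusters were close. The cluster led by Pcp4 (4285 cells) had 645 CPM of the members in sum (631 to 658), and the one led by Cldn10 (2653 cells) had 575 CPM (559 to 592). Of 13 astrocyte markers, 5 were raised in the Pcp4 cluster (Aqp4, Gja1, S100b, Agt and Sox9), but not Gfap, Aldoc or Slc1a2. Its 10 leading genes held 1 astrocyte marker, Agt, and also Stmn2 and C1ql1, of the neuroblast and OPC lists. The Cldn10 cluster had 7 of the 13 raised, with Gfap, Aldoc and Slc1a2 among them. Fos was at 259 CPM in the Pcp4 cluster and 229 CPM in the Cldn10 cluster, Egr1 at 105 and 86.1 CPM, and Fosb at 7.57 and 4.88 CPM. Jund was at 31.7 CPM in each, and Zfp36 at 16.0 and 17.1 CPM. Against all other cells, the rule called 7 members higher and 1 lower in the Pcp4 cluster (23.6% and 15.5% of genes). It called 2 higher and 1 lower in the Cldn10 cluster (12.5% and 15.3% of genes). Dusp1 was the lower one in each, at 1.00 and 1.10 CPM. The other cells include the other astrocyte-like cluster, so these counts lean on it. Fos in the Cldn10 cluster was 1.48 times that of its other cells (155 CPM), just under the rule's 1.5-fold.

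Mitochondrial share, a sign of cell quality, moved with the members in some classes. Astrocyte-like cells had a median of 3.78% mitochondrial UMIs, OPC-like cells 2.35%, progenitor-like cells 2.60%, cycling-like cells 1.88% and neuroblast-like cells 1.62%. Within astrocyte-like cells the summed level hardly moved over 4 bins of mitochondrial share: it was 628 CPM under 2%, 607 CPM at 2 to 4%, 627 CPM at 4 to 6% and 629 CPM at 6 to 10%. In OPC-like cells it was higher in each successive bin, at 318, 467, 533 and 602 CPM, in progenitor-like cells likewise, at 155, 197, 252 and 264 CPM, and in cycling-like cells, at 115, 129, 184 and 278 CPM. Under 2%, where mitochondrial share was alike, astrocyte-like cells had 628 CPM (582 to 676), OPC-like cells 318 CPM (281 to 358), progenitor-like cells 155 CPM (131 to 182) and cycling-like cells 115 CPM (105 to 127). From 6 to 10% the astrocyte-like (604 to 655) and OPC-like (473 to 754) intervals overlapped, with 41 OPC-like cells in that bin. The part of mitochondrial share in the levels of OPC-like, progenitor-like and cycling-like cells was not tested.

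**Figure D3:**
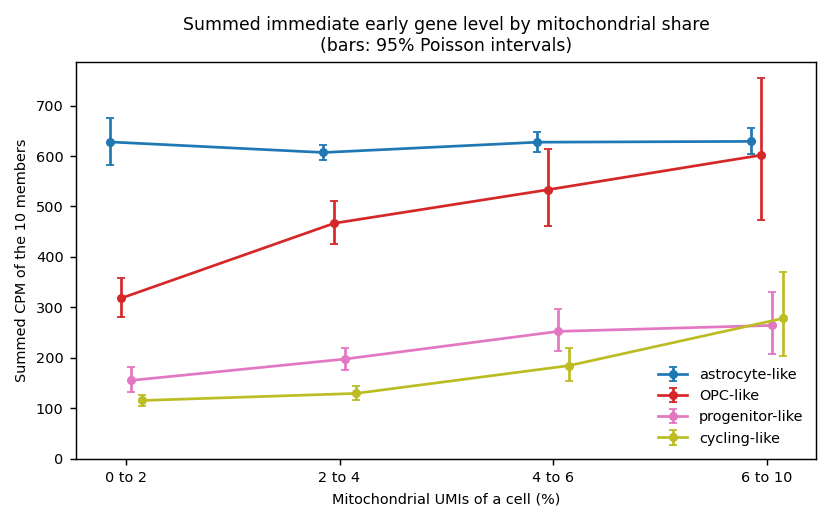
Summed CPM of the 10 members (y axis, from 0) by the share of mitochondrial UMIs in a cell (x axis, 4 bins) in 4 cell classes; points are sums over cells and bars are 95% Poisson intervals. Astrocyte-like cells stayed between 607 and 629 CPM, while OPC-like cells lay at 318 CPM in the lowest bin and 602 CPM in the highest.

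Depth moved with the levels too. Astrocyte-like cells under 1500 UMIs had 736 CPM of the members (670 to 808) and those over 5000 UMIs 534 CPM (501 to 569), and cycling-like cells of 1500 to 3000 UMIs had 106 CPM and those over 5000 UMIs 181 CPM. The cell cycle was looked at within classes, by the presence of a UMI of any of 10 cycling markers, which deeper cells show more often. In OPC-like cells, the 530 with such a UMI (median 3276 UMIs) had 130.4 CPM of Fos and 120.1 CPM of Egr1, and the 186 without (median 2440 UMIs) had 217 and 193 CPM. Progenitor-like cells with a cycling UMI had 55.5 CPM of Fos (47.1 to 65.0), and those without 146 CPM (118 to 178). Astrocyte-like cells showed little of this, with 241 CPM of Fos in cells with a cycling UMI and 255 CPM in those without. Among OPC-like cells, those with Pdgfra or Cspg4 but no Gpr17 or Bcas1 UMI (98 cells) had 139 CPM of Egr1, and those with the reverse, a pattern of later precursors (165 cells), had 132 CPM, with intervals that overlap.

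Members were seen together most often in the classes with high levels. At least 2 members had a UMI in 40.4% of astrocyte-like cells (39.3 to 41.6%), 46.3% of ependymal-like cells (38.5 to 54.3%) and 27.0% of OPC-like cells (23.7 to 30.4%). The same held for 7.96% of progenitor-like, 6.59% of cycling-like and 2.48% of neuroblast-like cells. In cells thinned to 1500 UMIs, with 536 astrocyte-like, 33 OPC-like, 89 cycling-like and 27 neuroblast-like cells left out as too shallow, they were 18.7%, 11.7%, 1.97% and 2.13%. No cell had more than 6 members. Across astrocyte-like cells the counts of 2 members were at most weakly related: Pearson's r of log counts was 0.11 for Fos with Egr1 in set 1 (5125 cells) and 0.12 in set 2 (1813 cells), 0.12 and 0.10 for Fos with Junb, and 0.03 and -0.00 for Fos with Jun. Such values in sparse counts are no finding.

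**Figure D4:**
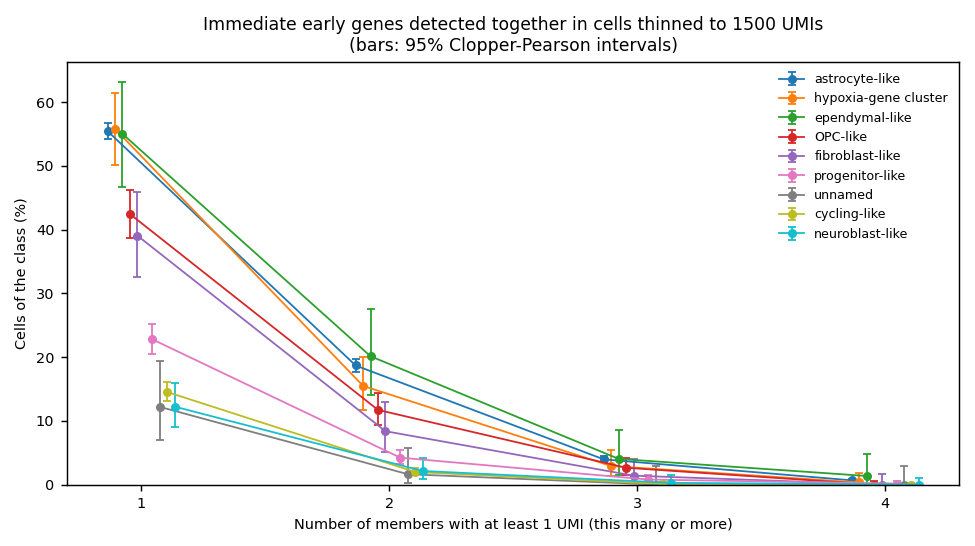
Share of cells (y axis, %) with at least 1, 2, 3 or 4 of the 10 members (x axis) in 9 classes, each cell thinned to 1500 UMIs; bars are 95% Clopper-Pearson intervals. At 2 members astrocyte-like cells stood at 18.7% and ependymal-like cells at 20.1%, against 1.97% of cycling-like and 2.13% of neuroblast-like cells.

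The barcode sets gave like levels for 7 members, unlike ones for Junb and Ier2, and a smaller difference for Jund. Fos was at 168 CPM in set 1 and 178 CPM in set 2, Egr1 at 77.7 and 82.6 CPM, and Jun at 54.2 and 54.99 CPM. Junb was at 91.0 CPM in set 1 (87.5 to 94.6) and 57.3 CPM in set 2 (52.8 to 62.2), a ratio of 1.59. Ier2 was at 18.2 CPM in set 1 (16.7 to 19.9) and 9.82 CPM in set 2 (7.99 to 11.9), a ratio of 1.86, and Jund at 24.7 and 18.2 CPM, a ratio of 1.36. Of 7251 genes with at least 500 UMIs, 85 (1.17%) differed by more than 1.5 times between the sets, and 95% of log2 ratios lay between -0.27 and 0.39. The log2 ratios of Ier2 (0.65) and Junb (0.62) lay outside this range and that of Jund (0.36) inside it. Ier2 ranked 62, Junb 70 and Jund 206 from the highest ratio of set 1 over set 2. For Junb and Ier2 the direction was seen within the 3 largest classes. Junb was at 138 and 90.2 CPM in astrocyte-like cells of sets 1 and 2, 12.98 and 4.30 CPM in cycling-like cells and 23.2 and 11.3 CPM in progenitor-like cells. Ier2 was at 17.9 and 11.0 CPM, 15.4 and 7.17 CPM, and 15.3 and 11.3 CPM in the same classes. In progenitor-like cells the intervals of the 2 sets overlap for each gene. Junb went the other way in fibroblast-like cells, at 63.4 and 71.1 CPM (50 and 14 UMIs), with intervals that overlap. Ier2, Junb and Jund have GC-rich transcripts (60.9%, 62.6% and 67.1% GC). Of the 223 genes with at least 60% GC, 4.48% differed by more than 1.5 times between sets, with a median log2 ratio of -0.00; the part of base composition in these 3 values was not tested. As the sets carry no condition, nothing about 20HC follows.

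**Figure D5:**
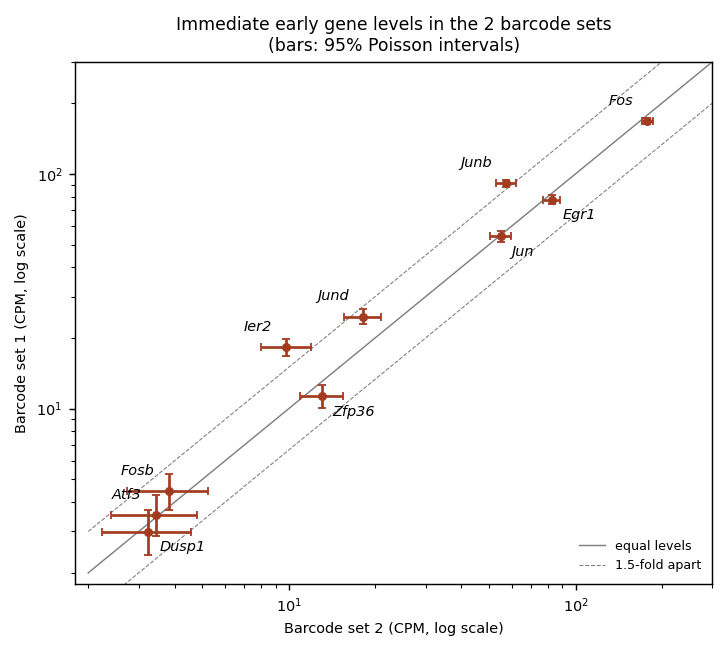
CPM of each member in barcode set 1 (y axis, log scale) and barcode set 2 (x axis, log scale) over all kept cells; bars are 95% Poisson intervals, the solid line marks equal levels and the dashed lines a 1.5-fold difference. Junb and Ier2 lie past the upper dashed line, Jund above the solid line, and the other 7 near it.

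Other genes of the pathway were read from 6 lists chosen with earlier results of these data known. Of the other AP-1 subunits and partners with enough UMIs (8 of 11), 7 were higher and 0 lower in astrocyte-like cells, a class where 35.2% of all genes were higher. Fosl2, a Fos paralog, was at 8.32 CPM there, 25.2 CPM in the hypoxia-gene cluster, 24.4 CPM in fibroblast-like cells and between 1.07 and 3.03 CPM in neuroblast-like, progenitor-like, cycling-like and OPC-like cells. Mafg, a small Maf protein, was at 58.0 CPM in astrocyte-like cells against 28.7 CPM in all others. In cycling-like cells 6 of the 8 were lower and 0 higher, where 42.5% of all genes were lower and 15% higher. Of the upstream kinases and SRF partners, 8 of 18 were higher and 2 lower in astrocyte-like cells, where 35.2% and 18.9% of all genes were. Mapk3 (ERK1) was at 94.1 CPM there against 82.3 CPM in all others, and Map2k2 (MEK2) at 69.6 against 49.9 CPM, and neither was called higher or lower. In OPC-like cells Mapk3 was lower, at 42.0 CPM against 91.7 CPM in all others.

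Other immediate early genes did not move as a block. In astrocyte-like cells 9 of 27 were higher and 5 lower, where 35.2% and 18.9% of all genes were. Cyr61, a matrix protein gene driven by SRF and YAP, was at 109 CPM there against 22.1 CPM in all others, and at 149 CPM in fibroblast-like cells. Btg2, a gene that curbs division, and Gadd45g, a stress sensor, were lower in astrocyte-like cells, at 59.8 and 110.0 CPM, and higher in progenitor-like cells, at 452 and 532 CPM against 80.2 and 156 CPM in all others. Btg2 is one of the markers that named the progenitor-like class, so its level there describes the choice. Fos stood at 72.6 CPM in the same cells. OPC-like cells had 2 of 27 higher and 8 lower, where 7.04% and 18.6% of all genes were. The 2 were Myc, at 22.5 CPM against 4.03 CPM in all others, and Nr4a1, at 8.66 CPM against 3.81 CPM. In the hypoxia-gene cluster Ier3, Btg1, Gadd45b and Tob1 were higher and Cyr61 and Myc lower (5.96% and 7.48% of all genes). Myc had no UMI there. Nfkbia, which holds back NF-kB, was at 111 CPM in astrocyte-like cells against 89.1 CPM in all others.

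Of the other feedback inhibitors, 9 of 14 were higher and 2 lower in astrocyte-like cells, where 35.2% and 18.9% of all genes were. Zfp36l1 and Zfp36l2, paralogs of Zfp36, were at 235 and 44.9 CPM there, against 131 and 20.6 CPM in all others, and Dusp14 at 83.4 against 24.3 CPM. In OPC-like cells 3 were higher and 3 lower, where 7.04% and 18.6% of all genes were. Those higher were the inhibitors of growth factor signalling Dusp6 (15.6 CPM against 4.28 CPM in all others), Spry1 (5.63 against 0.855 CPM) and Spred1. Heat shock genes, which cell stress also induces, were mixed in astrocyte-like cells: 3 of 12 were higher and 4 lower (35.2% and 18.9% of all genes), with Hsp90aa1 at 892 CPM against 2046 CPM in all others and Hspa8 at 972 against 1032 CPM. Hspa1a, the classical inducible heat shock gene, was at 4.78 CPM there against 1.67 CPM in all others and at 19.6 CPM in ependymal-like cells. Of genes described as AP-1 targets, 2 of 7 were higher (Cd44 and Timp1) and 4 lower in astrocyte-like cells, again beside 35.2% and 18.9% of all genes. Cd44 was at 177.5 CPM there against 47.8 CPM in all others, and Ccnd1, the cyclin D1 gene, was at 51.9 against 187 CPM and reached 739 CPM in OPC-like cells.

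The genes most like the summed members across the 12 clusters, by Pearson's r of log2 levels over 7245 genes with at least 500 UMIs, were Sulf2 (0.98), Itgav (0.98), Neat1 (0.97), Cyp4f13 (0.96), Col4a5 (0.96), Ppp2cb (0.96), Tm9sf3 (0.95), Chst2 (0.95), Tnfrsf1a (0.95) and Atraid (0.95). Sulf2 was at 188 CPM in the Pcp4 cluster and 16.1 CPM in neuroblast-like cells. The 12 clusters share libraries and depth, so these values describe this matrix. Across single astrocyte-like cells the highest value was that of Cyr61, with r of 0.12 in set 1 and 0.08 in set 2, and the other 9 genes of the same ranking (Sox9, Atp1b2, Clip3, Gnas, Sulf2, Clic4, Itm2c, Igfbp5 and Rgs4) were at or below 0.11 in each set, too weak for a finding in sparse counts.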

How the data were processed

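Whole UMI counts for every gene in every barcode were deposited by the authors as a single table that pools the 2 libraries. The library kit was the Chromium Single Cell 3′ kit of 10x Genomics, per the labels' protocols. Cell Ranger 2.1.1 and mm10 are named in the submitters' processing notes; any equalising of depth is not stated there. Each barcode ends in 1 or 2, and nothing ties these numbers to a library. Both labels' treatment text names 20HC, so the control was taken from its title.

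Barcodes under 500 genes (635) or above 10% mitochondrial UMIs (912) were left out, 1407 in all, and Scrublet (scanpy 1.11.5) then removed 189 of 9869 cells in set 1 (1.92%, against 7.90% expected) and 11 of 3409 in set 2 (0.323%, against 2.73%); doublets that remain were not measured. Kept cells held 38551772 UMIs. Counts were scaled to 10000 UMIs, log transformed and clustered (2000 genes, 30 principal components, 15 neighbours, Leiden resolution 0.5; leidenalg 0.10.2, Python 3.11.15). Clusters were named from 14 marker lists, with at least 3 markers 2-fold above other cells.

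Intervals are exact Poisson for CPM and Clopper-Pearson for shares; the limit for a share of 0 is 3 counts. Log2 ratios used CPM + 5, and calls needed at least 30 UMIs. On counts simulated for 13041 genes, doublings and halvings were planted only in genes with at least 500 UMIs. The rule called 100% of the planted doublings and halvings in astrocyte-like cells. In OPC-like cells it called 97% and 94%. Of unchanged genes it called 1.56% and 1.83% in these classes. The rates were not split by count. Fosb, Atf3, Dusp1 and Zfp36 had under 500 UMIs, so the rates for planted changes do not cover them in any class. All the rates need not hold for genes with few UMIs, such as Dusp1 and Zfp36 in OPC-like cells. Gene IDs were matched to GENCODE M21 (98.8%). Named genes were the members, the 3 genes with most UMIs of each list, genes called in the class with the highest summed level, and those most like the members; 1 gene that the rule names is not reported here, and other genes were named after their values were seen. The members, lists and marker genes were chosen with earlier results of these data known.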

Additional observations from a re-analysis of the deposited data

Results flagged for a closer look

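Members were also present in barcodes that the report does not use. The 912 barcodes above 10% mitochondrial UMIs (median 1260 UMIs) held 953 UMIs of the 10 members, a summed level of 608 CPM (607.696; interval 570 to 648), where 3 counts would be 1.91 CPM. The kept cells had 448 CPM. In these barcodes Fos was at 247 CPM and Egr1 at 110.3 CPM. The 635 barcodes under 500 genes (median 876 UMIs) held 105 member UMIs, or 176 CPM (175.633; interval 144 to 213), where 3 counts would be 5.02 CPM. The cell types of these barcodes were not determined.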

How the results depend on the processing

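No paired analysis was possible because there is 1 library per condition and no test. In astrocyte-like cells 6 to 8 members were higher over 17 other settings, and 1 lower in 16 of them, but 2 with cycling-like cells left out of the comparison. The log2 ratio of the summed members there (1.34 in the report) was 1.28 with no cell filter, 1.41 at a 5% mitochondrial limit, 1.29 with called doublets kept, 1.38 and 1.09 at resolutions 0.3 and 0.8, 1.20 with 15 principal components, 1.28 and 1.504 in sets 1 and 2 alone, 1.24 without mitochondrial and ribosomal protein genes, 1.40 after thinning, 1.41 as a mean over cells and 0.92 without cycling-like comparison cells. In cycling-like cells 1 member was higher with no cell filter, doublets kept, 15 components and set 1 alone. In OPC-like cells 1 was higher in set 2 alone, after thinning, as a mean over cells and at a 2-fold threshold, and 4 against cells that are not astrocyte-like; 1 was lower at 2-fold and 0 against those cells, where the log2 ratios of Junb and Zfp36 turned to 0.37 and 0.060. In neuroblast-like cells 1 was higher at resolution 0.3 and with 15 components, and 4 were lower after thinning and against cells that are not astrocyte-like.

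Progenitor-like calls were the least stable. The number lower was 3 at the 5% limit, 2 with doublets kept, 1 at resolution 0.8, with 15 components and with the early gene lists left out of clustering, and 3 against cells that are not astrocyte-like. There the summed ratio (-1.22 in the report) turned to 0.018 at the 5% limit and 0.033 with 15 components, Fos to 0.31 and 0.21, Jund to 0.023 and 0.0020 (0.079 against cells that are not astrocyte-like), Fosb to 0.064 at 5% and 0.031 without the lists, and Egr1 to 0.37 at 5%, 0.076 with doublets kept, 0.18 at resolution 0.8, 0.49 with 15 components and 0.066 without the lists. No cluster was progenitor-like with no cell filter or at resolution 0.3. Where the clustering changed, the class held fewer cells; the cause was not tested. The settings that leave out cycling-like comparison cells, the unnamed cluster or barcode sequences found in each set, and the set ratios within classes, were chosen after seeing the data. Of the other values, 608 moved past counting error, 16 reversed (all given here) and 2318 did not.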
